A study of Homo sapiens with 6 samples.

Results

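The 31 genes described here are the fatty acid oxidation and ketone genes of a fixed list of symbols, and all 31 were found by symbol among the 20026 genes measured. By role they comprised 3 genes of the carnitine shuttle (CPT1A, CPT2 and SLC25A20), 4 acyl-CoA synthetases (ACSL1, ACSL3, ACSL4 and ACSL5) and 4 mitochondrial acyl-CoA dehydrogenases (ACADVL, ACADL, ACADM and ACADS). A further 5 genes served mitochondrial hydration, oxidation and thiolysis (HADHA, HADHB, HADH, ECHS1 and ACAA2), and 3 encoded auxiliary enzymes for unsaturated chains (ECI1, ECI2 and DECR1). Peroxisomal oxidation was represented by 4 genes (ACAA1, ACOX2, EHHADH and HSD17B4) and electron transfer to the respiratory chain by 3 (ETFA, ETFB and ETFDH). The last 5 were the ketone genes ACAT1 and BDH1, the lipid binding and droplet genes FABP1 and PLIN2, and PDK4, a kinase that shifts fuel use away from glucose.

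RNA-seq was done on HepG2 cells, a human liver cancer line, with 2 libraries of scramble cells (Scr) and 2 of each knockout, miR-23a KO or miR-27a KO, to learn which genes depend on either miRNA. KO cells came from CRISPR/Cas9 editing with a pair of guides around the mature miRNA, carried in the PX458 plasmid, followed by growth of single sorted cells, and Scr cells had received the plasmid without a guide. The labels give Scr the genotype WT and the other groups miR-23a-KO and miR-27a-KO, but elsewhere their wording does not match HepG2 cells, and which clone each library came from is not given. Neither KO was confined to its own miRNA in the qPCR of the study, since clones of miR-23a KO also had less miR-24-3p and miR-27a-3p, and those of miR-27a KO less miR-24-3p. Levels of the edited genes were not analysed here, and the groups rest on the labels.

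The Scr libraries held 14891239 and 14405250 counts in total, those of miR-23a KO 16515261 and 15930779, and those of miR-27a KO 15850589 and 15947308. The 31 genes took 0.361% and 0.377% of the counts of Scr, 0.305% and 0.399% of those of miR-23a KO, and 0.442% and 0.447% of those of miR-27a KO. Both miR-27a KO libraries thus lay above the other 4, and the miR-23a KO libraries lay on either side of Scr. Nothing in the labels says that the libraries of a group came from separate cultures or clones, so p-values measure the spread between these libraries only, which may be technical.

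Long-chain fatty acids are activated to acyl-CoA, passed into mitochondria on carnitine and shortened there step by step, with electrons handed to the respiratory chain and acetyl-CoA released. Liver turns part of that acetyl-CoA into ketone bodies, and the nuclear receptor PPARA, paired with RXRA, drives many genes of the pathway during fasting. A miRNA lowers its targets mostly through matches to its seed in their 3′ UTR.

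The mature sequences of the edited miRNAs are shown first because their seeds (bases 2 to 8, in capitals) define the sites searched for in the members. Both lie on the minus strand of chromosome 19 (RefSeq, GRCh38.p14), miR-23a-3p at chr19:13836595-13836615 and miR-27a-3p at chr19:13836447-13836467.
hsa-miR-23a-3p: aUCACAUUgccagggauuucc
hsa-miR-27a-3p: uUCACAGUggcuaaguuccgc

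The seed matches, AATGTGA for miR-23a-3p and ACTGTGA for miR-27a-3p, were searched in the 3′ UTRs of GENCODE 29 (GRCh38), on the transcribed strand. For each gene the longest 3′ UTR among its protein-coding transcripts was taken, which need not belong to the transcript used for its length. A miR-23a-3p match was present in 3 of the 31 members (9.68%) against 19.3% of 15883 genes, and a miR-27a-3p match in 4 members (12.9%) against 16.7%. Members had shorter 3′ UTRs than all genes, with a median of 818 bases against 1224. By this rule ACAA1 and PDK4 carried both matches, ETFA only that of miR-23a-3p, and ACAA2 and ACSL3 only that of miR-27a-3p. For ACAA1 the 3′ UTR came from another transcript than the one used for its length. Whether its matches are 3′ UTR sequence in the latter, or coding sequence, was not checked. The windows of the expressed members are given 5′ to 3′ with the match in capitals, and a match is a description and not a proven site.
ACAA1, miR-23a-3p match at chr3:38122893-38122899, minus strand: actcatttggaaAATGTGAacactgatgac
ETFA, miR-23a-3p match at chr15:76216006-76216012, minus strand: aagaccatagctAATGTGAcaaaagcagac
ACAA1, miR-27a-3p match at chr3:38126600-38126606, minus strand: aagaggagcatcACTGTGAcccaggatgag
ACAA2, miR-27a-3p match at chr18:49783824-49783830, minus strand: accagtgagctcACTGTGAcccatccttac
ACSL3, miR-27a-3p match at chr2:222944485-222944491, plus strand: aattggttatttACTGTGAgttcatttccg

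Levels were compared between genes as CPM (library-size scaled counts, after TMM normalization) per kilobase of transcript. In Scr cells ETFB, the beta subunit of the flavoprotein that takes electrons from the dehydrogenases, was the highest at 385 CPM per kilobase. It was followed by PLIN2, which coats lipid droplets, at 255, by the very-long-chain dehydrogenase ACADVL at 172 and by HADHA, a subunit of the mitochondrial trifunctional protein, at 145. ETFB and PLIN2 held ranks 1 and 2 in all 3 groups. At the lower end ETFDH, EHHADH and ACSL1 had 2.35, 3.68 and 0.596 CPM per kilobase in Scr. FABP1, the fatty acid binding protein of liver, moved from rank 11 in Scr to rank 19 in miR-23a KO and rank 6 in miR-27a KO, with 46.2, 19.1 and 143 CPM per kilobase.

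ACADL, the long-chain dehydrogenase, and PDK4 were at the limit of detection. ACADL had 1 count in the library miR-23a KO 1 and 0 in the other 5, and PDK4 had 1 count each in miR-23a KO 2 and miR-27a KO 1 and 0 in the rest. A count of 0 allows up to 3 counts, or between 0.162 and 0.228 CPM depending on the library, for counting error only. Neither gene was tested, so 29 of the 31 members entered each comparison.

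**Figure D1:**
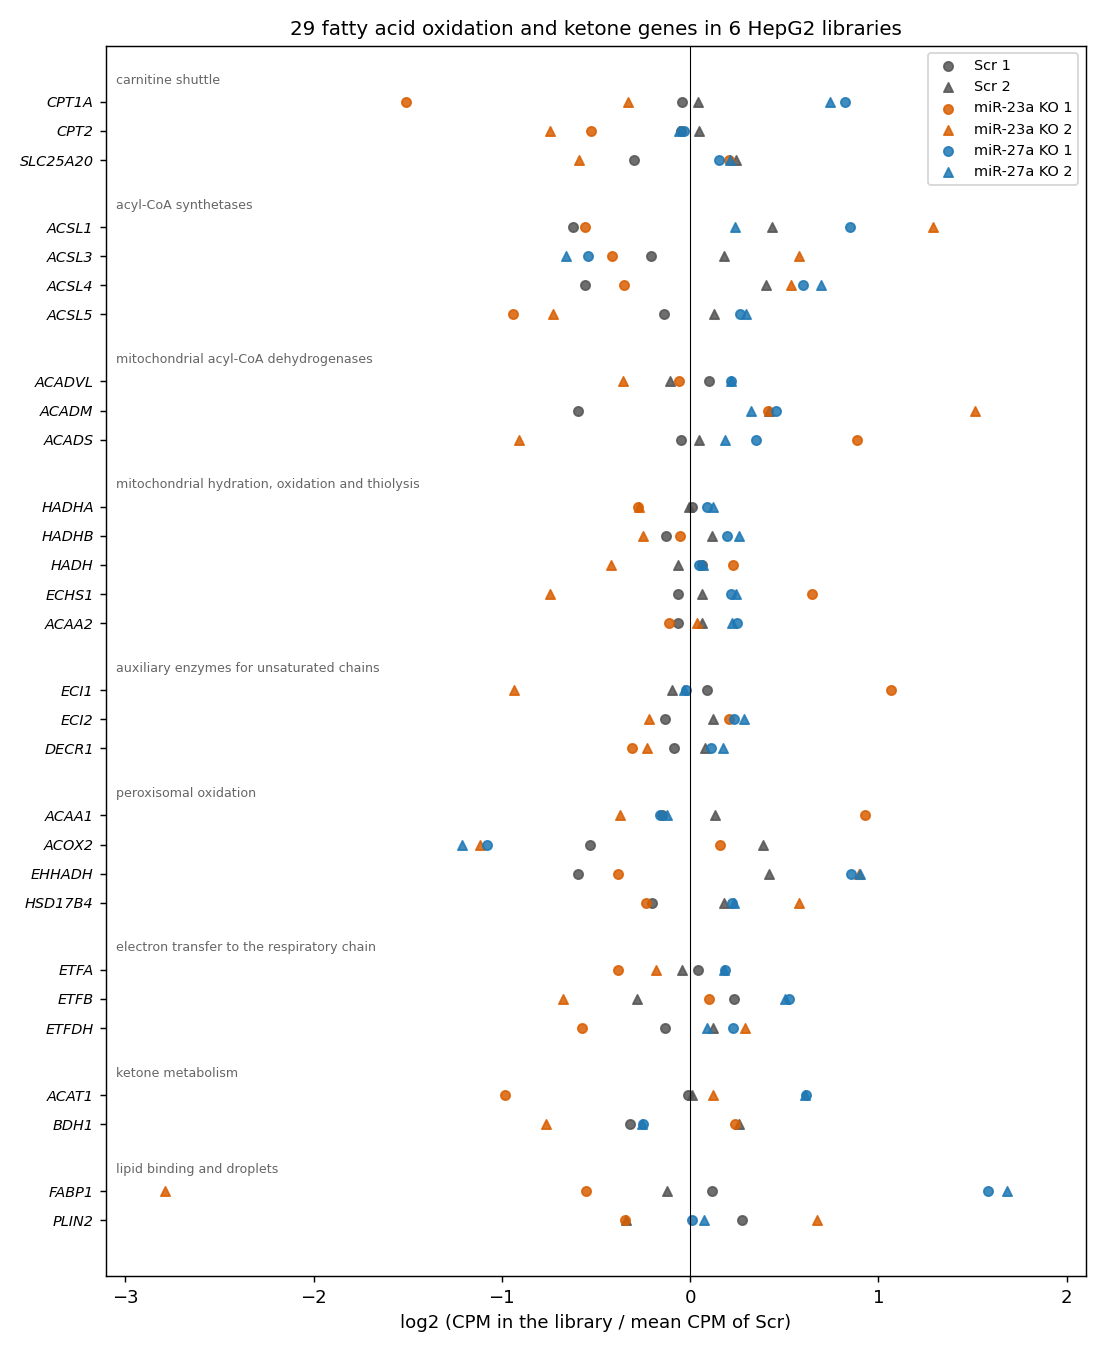
Level of the 29 tested members in each of the 6 libraries, as log2 of the CPM over the mean CPM of Scr, ordered by role (circle: replicate 1, triangle: replicate 2; grey: Scr, orange: miR-23a KO, blue: miR-27a KO). The blue points of a gene nearly coincide and mostly lie right of 0, whereas the orange points are often far apart, as for FABP1, CPT1A and ECI1.

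The plot of levels by library shows that the groups differed in how close their libraries lay. Over the 29 members the median absolute log2 ratio between the libraries of a group was 0.24 for Scr, 0.88 for miR-23a KO and 0.04 for miR-27a KO, against 0.25, 0.89 and 0.09 over 13128 genes. In miR-23a KO 12 of 29 members were over 2-fold apart, as were 44.1% of all genes, and in Scr and miR-27a KO 0 members were, against 5.01% and 0.945% of genes. The median squared deviation of the members' counts exceeded sampling noise 42.95 times for Scr, 282 times for miR-23a KO and 1.98 times for miR-27a KO, against 12.1, 125 and 1.81 times over all genes. At the same relative spread this ratio grows with the counts of a gene. It therefore does not show that members varied more than all genes.

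Within miR-23a KO the difference between the libraries ran with base composition. GC-rich ECI1, ACADS and ECHS1 were lower in replicate 2, with log2 ratios of replicate 2 to replicate 1 of -1.99, -1.78 and -1.39. AT-rich EHHADH, ACADM and ACSL3 were higher there, at 1.24, 1.08 and 0.98. Across the 29 members the ratio correlated with GC content at r = -0.71 and with log2 transcript length at r = 0.64, a description over genes that share the same libraries. Scr had weaker correlations of the same sign (-0.38 and 0.54), and in miR-27a KO they were -0.04 and -0.34. FABP1 (-2.10) departed from the trend with GC content, at 45.2%, but its short transcript of 555 bases goes with the trend with length. ACSL1 had the highest ratio, 1.58, at a GC content of 46.0%, and CPT1A had 1.16 at 50.8%. Every miR-23a KO value below therefore rests on libraries that stand far apart.

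**Figure D2:**
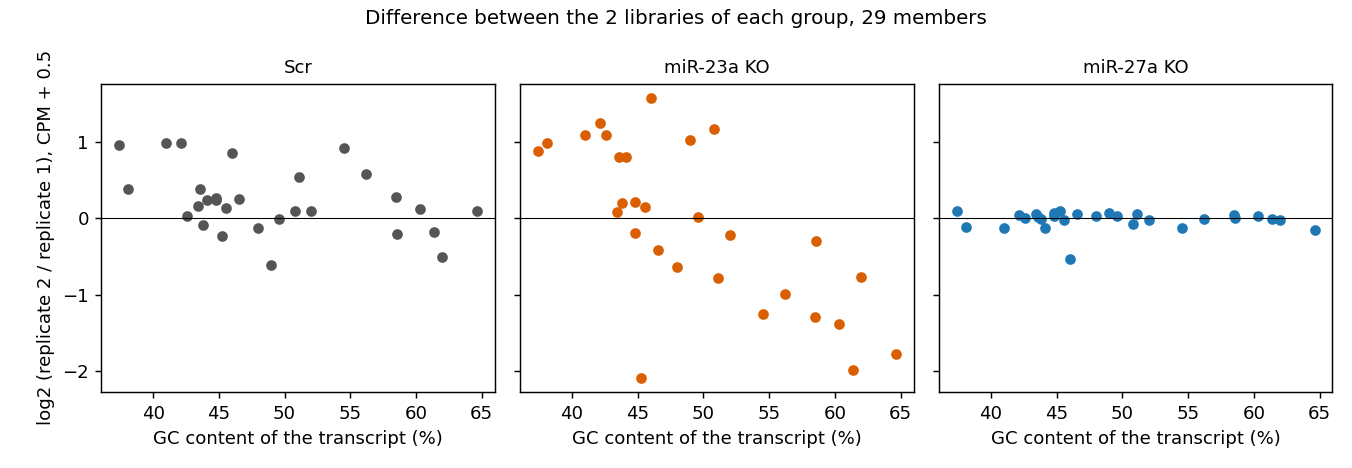
Log2 ratio of replicate 2 to replicate 1 (CPM + 0.5) of the 29 tested members in each group, against the GC content of the transcript in percent. Each point is a gene, and the line marks no difference. Points fall with GC content in miR-23a KO, less steeply in Scr, and stay near 0 in miR-27a KO, except ACSL1 at -0.54.

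In miR-27a KO cells FABP1, CPT1A and ACAT1 rose against Scr, and 0 members fell at the same threshold. These genes act at different steps: FABP1 carries fatty acids in the cytosol, CPT1A loads them onto carnitine at the outer mitochondrial membrane as the main control point of entry, and ACAT1 joins or splits acetoacetyl-CoA in mitochondria. The rises were 3.1-fold for FABP1, 1.72-fold for CPT1A and 1.53-fold for ACAT1. Most other members lay slightly above Scr without passing the test.

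FABP1 (gene 2168, chr2:88122982-88128116, minus strand) had 27.7 and 23.5 CPM in Scr and 76.75 and 82.25 CPM in miR-27a KO, or 25.6 ± 2.99 and 79.5 ± 3.89 (mean ± SD, n = 2). Both miR-27a KO libraries lay well above both Scr libraries. CPT1A (gene 1374, chr11:68754620-68844410, minus strand) had 62.0 and 65.9 CPM in Scr and 113 and 107 CPM in miR-27a KO, again with no overlap. ACAT1 (gene 38, chr11:108121516-108147776, plus strand) had 60.8 and 61.7 CPM in Scr and 93.8 and 93.6 CPM in miR-27a KO, so that libraries of the same group were nearly equal. In bulk RNA, more cells that express a gene and more RNA per cell cannot be told apart.

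**Figure D3:**
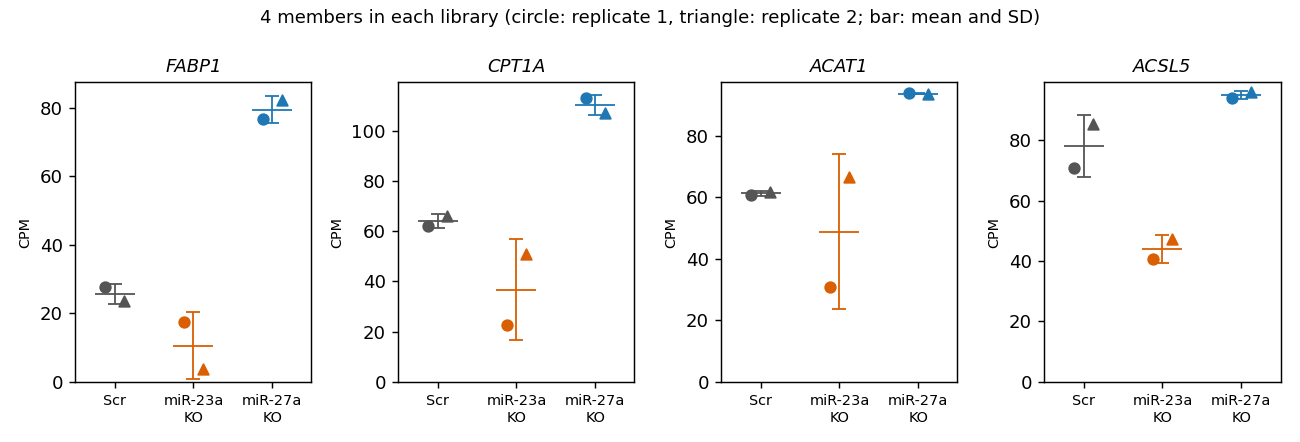
CPM of FABP1, CPT1A, ACAT1 and ACSL5 in each library (circle: replicate 1, triangle: replicate 2), with the mean and SD of the 2 libraries of a group as bars. For each gene both blue miR-27a KO points lie above both grey Scr points, and for ACAT1 the orange miR-23a KO points lie on either side of Scr.

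The fitted log2 fold change was 1.63 (SE 0.122) for FABP1, and the adjusted p was 0.00521 (edgeR, quasi-likelihood test, Benjamini-Hochberg adjustment over 13820 genes). For CPT1A it was 0.78 (SE 0.0869) with an adjusted p of 0.0107, and for ACAT1 0.61 (SE 0.0812) with an adjusted p of 0.0153, again by edgeR. At an adjusted p under 0.05 and a fold change over 1.5, 3 of 29 members rose and 0 fell, where 3.52% of all genes tested rose and 6.74% fell. At an adjusted p under 0.001 in this edgeR fit, 0 members passed in either direction, as against 0.0145% of genes each way. At that same threshold DESeq2 had 3 members higher and 1 lower, and edgeR with a replicate block had 1 higher and 0 lower. Shares of all genes under 0.001 are not given for these alternatives. Their counts therefore have no background here, and the 0.0145% of the other fit does not serve as one. At an unadjusted p under 0.05, 7 members were higher and 2 lower, against 13.8% and 18.4% of genes, and DESeq2 called 3 higher and 2 lower, against 4.08% and 7.66%. The 2 members that DESeq2 called lower were ACOX2 and ACSL3, named after their values were seen.

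The calls depended on how the spread was estimated. When all 6 libraries were fitted together, the wide spread of miR-23a KO entered the estimate and 0 members were called, with 0.0212% of genes up and 0.431% down. Without either miR-27a KO library FABP1 alone was called, where 0.586% to 0.608% of genes were up and 1.92% to 1.93% down, without Scr 1 there were 4 members up and 2 down (ETFB added, ACOX2 and ACSL3 down), and without Scr 2 there were 7 up and 1 down (ACADM, ACSL1, ACSL4 and EHHADH added, ACOX2 down). Of all genes 7.87% and 9.30% were called up and down without Scr 1, and 13.81% and 13.18% without Scr 2. With GC content and length corrected ACAT1 had a log2 fold change of 0.49 and was no longer past 1.5-fold, whereas ACADS and ETFB were called up and ACSL3 down, in a fit that called 5.08% of genes up and 5.67% down. Over the 11 alternatives the log2 fold change of FABP1 ran from 1.51 to 1.76, that of CPT1A from 0.74 to 0.86 and that of ACAT1 from 0.49 to 0.63. Adjusted p-values (edgeR's or DESeq2's test, Benjamini-Hochberg) ran from 1.29e-16 to 0.637, from 6.15e-06 to 0.844 and from 4.43e-05 to 0.935.

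Across all 29 members 23 had a positive fitted log2 fold change in miR-27a KO, against 50.9% of genes tested, and the median was 0.22 against 0.01. For 17 members the Scr libraries were both exceeded by each miR-27a KO library, and for 2 (ACOX2 and ACSL3) the order was the reverse, where 32.4% and 31.9% of genes did so. After correction for GC content and length the median was 0.16 against 0.06 for all genes, so that the gap between the members and all genes was smaller on that scale. The members were chosen with results of these data known, and their counts and medians are a description without a test.

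By role, the carnitine shuttle held 1 called gene of 3, since CPT2, which returns acyl groups to CoA inside mitochondria, was at -0.05 (SE 0.0895) and the translocase SLC25A20 at 0.18 (SE 0.196). Of the 4 acyl-CoA synthetases 0 passed. ACSL4, which favours polyunsaturated chains, had 66.2 and 129 CPM in Scr and 147 and 158 CPM in miR-27a KO, with a log2 fold change of 0.64 (SE 0.301). Without Scr 1 or Scr 2 in turn the value of ACSL4 became 0.25 and 1.20. ACSL5 had 70.9 and 85.4 CPM in Scr and 94.1 and 95.9 CPM in miR-27a KO, at 0.28 (SE 0.113). ACSL3, picked out after its values were seen, had 49.8 and 65.2 CPM in Scr and 39.4 and 36.4 CPM in miR-27a KO, the reverse order.

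All 3 tested acyl-CoA dehydrogenases were between 0.21 and 0.39 on the log2 scale, and 0 passed. ACADVL had 428 and 372 CPM in Scr and 465 and 464 CPM in miR-27a KO. ACADM, the medium-chain enzyme, had 10.6 and 21.35 CPM in Scr and 21.9 and 20.0 CPM in miR-27a KO, so that the groups overlapped. The 5 genes of hydration, oxidation and thiolysis were all positive, between 0.06 and 0.23, and 0 passed. HADHA had 444 and 439 CPM in Scr and 469.7 and 480.4 CPM in miR-27a KO, a small step (0.10, SE 0.0769) in the same direction in both libraries. HADHA and HADHB are transcribed from opposite strands and overlap at their 5′ ends, and since the counting strand is not given their reads cannot be told apart there.

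Among the auxiliary enzymes 0 of 3 passed, and the isomerase ECI2 had 119 and 142 CPM in Scr against 153 and 159 CPM in miR-27a KO (0.26, SE 0.108). Of the 4 peroxisomal genes 0 passed, and 2 of the 4 were positive. EHHADH, the bifunctional enzyme of the pathway, was at 0.88 (SE 0.329), while ACOX2, an oxidase of branched chains and bile acid precursors that was chosen after its values were seen, was at -1.15 (SE 0.304). ACOX2 had 45.05 and 85.3 CPM in Scr and 30.8 and 28.2 CPM in miR-27a KO. ACAA1, the peroxisomal thiolase, had 216 and 263 CPM in Scr and 214 and 219.9 CPM in miR-27a KO, at -0.15 (SE 0.114), and its sign turned with GC content and length corrected (0.14).

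All 3 genes of electron transfer were positive and 0 passed, with ETFB at 407.5 and 285 CPM in Scr and 499 and 491 CPM in miR-27a KO (0.51, SE 0.176). Without Scr 1 or Scr 2 in turn the value of ETFB became 0.80 and 0.28. Of the ketone genes, BDH1, which interconverts acetoacetate and beta-hydroxybutyrate, was at -0.26 (SE 0.2) beside the rise of ACAT1. PLIN2 had 609.6 and 397.5 CPM in Scr, on either side of the 507 and 529 CPM of miR-27a KO. Its log2 fold change of 0.04 (SE 0.205) became -0.24 without Scr 2. A p that misses the threshold does not show that these levels did not differ.

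**Figure D4:**
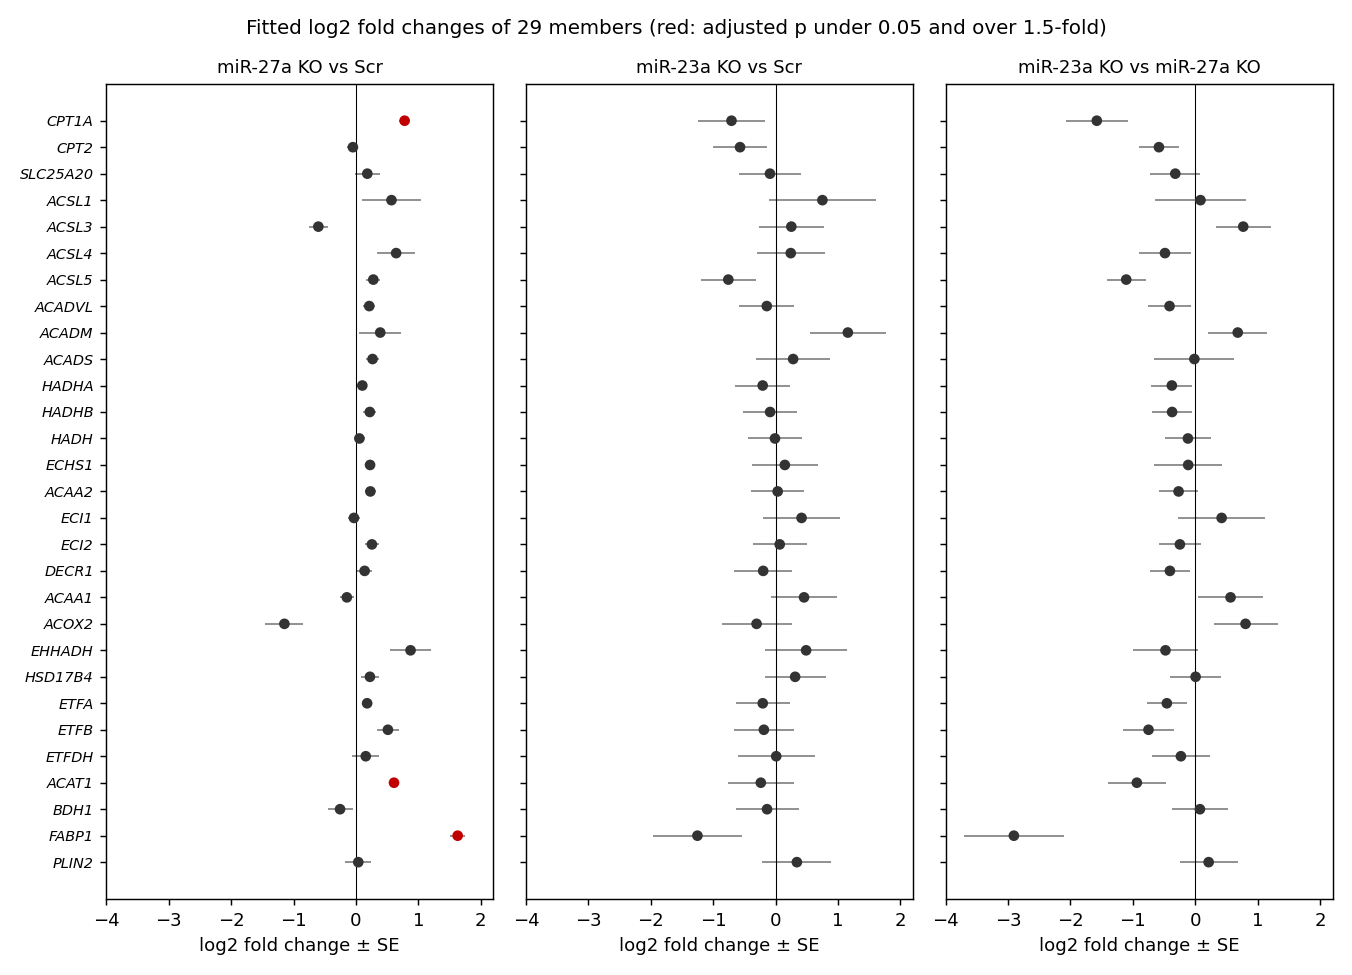
Fitted log2 fold change of the 29 tested members in the 3 comparisons, with the standard error as a horizontal line; red marks an adjusted p under 0.05 and a fold change over 1.5. Red points are FABP1, CPT1A and ACAT1 in miR-27a KO against Scr, and the wide lines in the other panels show the spread of the miR-23a KO libraries.

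In miR-23a KO cells 0 of 29 members passed the test against Scr in either direction. The members nearest to it were ACADM, on the higher side, and FABP1 and ACSL5, on the lower side. FABP1 had 17.5 and 3.71 CPM against 27.7 and 23.5 CPM in Scr, so that both miR-23a KO libraries were below Scr but differed severalfold from each other. ACSL5 had 40.7 and 47.25 CPM against 70.9 and 85.4 CPM in Scr, the one case among these 3 in which the KO libraries lay close together and apart from Scr.

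ACADM had 21.3 and 45.6 CPM in miR-23a KO against 10.6 and 21.35 CPM in Scr, where the lower KO library and the higher Scr library were alike. CPT1A had 22.5 and 50.96 CPM in miR-23a KO, both under the 62.0 and 65.9 CPM of Scr. ACAT1 had 31.0 and 66.6 CPM, on either side of Scr. The fitted log2 fold changes were -1.25 (SE 0.709) for FABP1, 1.16 (SE 0.614) for ACADM, -0.76 (SE 0.442) for ACSL5, -0.71 (SE 0.54) for CPT1A and -0.24 (SE 0.525) for ACAT1. Without miR-23a KO 1 or 2 in turn these became -2.73 and -0.55 for FABP1, 1.57 and 0.41 for ACADM, -0.67 and -0.94 for ACSL5, -0.28 and -1.51 for CPT1A, and 0.17 and -0.99 for ACAT1.

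Of 13786 genes tested, 0% were called at an adjusted p under 0.05 or under 0.001 in either direction, so the count of 0 members is the same as the background (edgeR, quasi-likelihood test, Benjamini-Hochberg). At an unadjusted p under 0.05 there were 0 members in either direction, among 118 genes higher and 214 lower (0.856% and 1.55%). DESeq2 called 0 members, where it called 0.029% of genes up and 0.428% down. For 7 members each miR-23a KO library was under both Scr libraries (ACSL5, CPT1A, CPT2, DECR1, ETFA, FABP1 and HADHA, of which CPT2, DECR1 and ETFA were named after their values were seen), and for 0 each was over them, against 14.9% and 8.87% of genes. The median log2 fold change of the members was -0.01 against 0.16 for all genes, and 14 of 29 were positive, against 63.0% of genes.

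Single libraries decided the calls. Without miR-23a KO 1, ACADM was called up and ECI1 and FABP1 down. Without miR-23a KO 2, ACAA1, ACADS, ECHS1 and ECI1 were called up and ACAT1, ACSL5 and CPT1A down, so that ECI1 was called in opposite directions. Of all genes 6.04% and 4.06% were called up and down in the former fit and 12.45% and 7.42% in the latter, close to the members' share. The median of the members was -0.22 and -0.23 in these fits and 0.15 without Scr 2, against -0.04, -0.07 and 0.16 over all genes.

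Among the most abundant members of the other roles the spread varied. PLIN2 had 396 and 802.5 CPM in miR-23a KO, ACAA1 455.5 and 185 CPM, and ETFB 371 and 217 CPM. HADHA had 364 and 366 CPM, close together and both under Scr (-0.21, SE 0.441), and with GC content and length corrected its log2 fold change was 0.00. ACADVL had 384 and 312 CPM, ECI2 150.5 and 112 CPM, and ACSL4 76.3 and 141 CPM, each overlapping Scr.

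Whether the KO groups differed from each other was tested directly, on the libraries of both KO groups without Scr. FABP1 had 17.5 and 3.71 CPM in miR-23a KO and 76.75 and 82.25 CPM in miR-27a KO, CPT1A 22.5 and 50.96 against 113 and 107 CPM, and ACSL5 40.7 and 47.25 against 94.1 and 95.9 CPM. Groups did not overlap for any of the 3, and in each the Scr libraries lay between them. The log2 fold changes of miR-23a KO over miR-27a KO were -2.91 (SE 0.8) for FABP1, -1.58 (SE 0.493) for CPT1A and -1.11 (SE 0.315) for ACSL5. Their adjusted p-values were 0.35, 0.43 and 0.375 (edgeR, quasi-likelihood test, Benjamini-Hochberg), none past the threshold.

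Of 29 members 0 were called in either direction, as were 0% of 13841 genes. At an unadjusted p under 0.05 there were 3 members lower (FABP1, ACSL5 and CPT1A) and 0 higher, against 4.06% and 4.66% of genes, and DESeq2 called 1 lower (FABP1) and 0 higher, against 1.58% and 1.87%. Both miR-23a KO libraries lay below both miR-27a KO libraries for 14 members and above them for 1 (ACSL3), against 20.8% and 18.7% of genes. The median of the members was -0.27 against 0.11 for all genes, and 9 of 29 were positive, against 57.6% of genes. Without miR-23a KO 1 there were 3 members up and 9 down, and without miR-23a KO 2 there were 4 up and 8 down. So many genes were called in these fits (20.1% up and 15.31% down in the former, 25.65% and 26.84% in the latter) that fewer members than that share were up, and of those down the 8 in the latter were near it and the 9 in the former above it. FABP1, CPT1A and ACSL5 were down in both of these fits, while ACADS was called down in the former and up in the latter, as was ECI1.

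The comparisons of either KO with Scr share the Scr libraries, so their values are set side by side without a measure of likeness. For CPT1A the log2 fold changes were -0.71 for miR-23a KO and 0.78 for miR-27a KO, for FABP1 -1.25 and 1.63, for ACSL5 -0.76 and 0.28, and for ACAT1 -0.24 and 0.61. ACSL4 was at 0.24 and 0.64, and ETFB at -0.19 and 0.51. The member with the highest fitted value in miR-23a KO, ACADM, was at 1.16 and 0.39.

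With so few called, members with a seed match are given by value only. In miR-27a KO the log2 fold changes of those with a miR-27a-3p match were -0.15 for ACAA1, 0.23 for ACAA2 and -0.60 for ACSL3, which DESeq2 called down. In miR-23a KO those with a miR-23a-3p match were at 0.46 for ACAA1 and -0.21 for ETFA. A GENCODE 3′ UTR without these 7 bases says only that the letters are not in that transcript.

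FABP1 is a textbook target of PPARA, and its promoter is shown because it rose most among the members. RefSeq promoter windows run from 250 bases before to 50 after a start, and 26 members had 37 windows. The half-site AGGTCA, read on both strands, was found in 2 of the 37 windows (5.41%), that of FABP1 with 2 matches and that of ACSL5 with 1, against 13.8% of 35116 windows. The direct repeat AGGTCANAGGTCA, which contains the half-site, was in 0 member windows and in 8 of all windows (0.023%). Only exact copies were searched for, so imperfect repeats were missed and the count of 0 says nothing about them. The FABP1 window lies at chr2:88128013-88128312, minus strand, GRCh38.p14, with the half-site or its reverse complement in capitals, and a match does not show that a factor binds.
FABP1: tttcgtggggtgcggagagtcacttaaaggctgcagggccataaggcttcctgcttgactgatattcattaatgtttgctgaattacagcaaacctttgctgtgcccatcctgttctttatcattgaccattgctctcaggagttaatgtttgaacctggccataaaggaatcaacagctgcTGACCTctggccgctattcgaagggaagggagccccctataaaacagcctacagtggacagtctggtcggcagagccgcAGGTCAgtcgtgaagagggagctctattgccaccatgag

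Other genes of the pathway were called both ways in miR-27a KO. Of 107 other genes listed for ketone metabolism, mitochondrial and peroxisomal oxidation, fatty acid uptake, lipid droplets and PPAR regulation, 103 were found and 88 tested. In miR-27a KO 4 rose (4.55%) and 10 fell (11.4%), where 3.52% and 6.74% of all genes did, so the rises were near the background, and the median was -0.02. Those that rose were the peroxisomal catalase CAT (0.95, SE 0.117), the lactate and ketone carrier SLC16A1 (0.67, SE 0.0849), the medium-chain acyl-CoA synthetase ACSM1 (3.69, SE 0.571) and the coactivator PPARGC1A (2.21, SE 0.456). ACSM1 had only 2 and 8 counts in Scr, so the size of its rise rests on values near the floor.

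Those that fell included the transcription factor CREB3L3 (-1.39, SE 0.14), PPARD (-0.61, SE 0.0947), the coactivator PPARGC1B (-2.88, SE 0.56), the pantetheinase VNN1 (-3.97, SE 0.445) and the fatty acid transporter CD36 (-1.57, SE 0.323). The lipid droplet genes PLIN3 (-0.81, SE 0.0927) and CIDEC (-1.01, SE 0.192) and the carrier SLC16A6 (-2.45, SE 0.573) fell as well. So did TXNIP (-1.31, SE 0.269) and UCP2 (-0.70, SE 0.151), named after their values were seen. Counts in miR-27a KO were low for VNN1 (6 and 4), PPARGC1B (13 and 5) and SLC16A6 (8 and 18). Adjusted p-values of the 14 called genes lay between 0.00857 (CREB3L3) and 0.0499 (SLC16A6) in edgeR's quasi-likelihood test after Benjamini-Hochberg adjustment. By list, 1 of 6 tested ketone genes rose and 1 fell, 1 of 22 mitochondrial genes and 1 of 14 peroxisomal genes rose, 1 of 10 uptake genes and 2 of 10 droplet genes fell, and 1 of 20 PPAR regulators rose and 4 fell. Of 8 tested PPARA targets, a list that includes CPT1A and overlaps the others, 1 rose and 3 fell.

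These counts moved with the setting. Without either miR-27a KO library ACSM1 and CAT were still called up and CREB3L3 and VNN1 down, and no other of the 88 genes was called. There were 10 up and 15 down without Scr 1, 16 up and 15 down without Scr 2, 3 up and 4 down with no filter on low counts, and 0 in the fit of all 6 libraries. All genes gave 7.87% up and 9.30% down without Scr 1, 13.81% and 13.18% without Scr 2, and 1.57% and 3.04% with no filter. DESeq2 gave 6 up and 11 down, and correction for GC content and length 7 up and 8 down, against 4.08% and 7.66%, and 5.08% and 5.67% of genes.

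PPARGC1A, a coactivator of PPARA, had 1.11 and 2.97 CPM in Scr, 9.81 and 9.21 CPM in miR-27a KO and 0 counts in both miR-23a KO libraries. Its level in miR-23a KO was thus at least 10.5-fold lower than in Scr and at least 48.8-fold lower than in miR-27a KO, with a floor of 3 counts per library and the mean of the other group; from Scr 1 alone the former bound would be lower. Neither difference passed the test (adjusted p 0.46 and 0.099, edgeR, quasi-likelihood test, Benjamini-Hochberg), and its rise in miR-27a KO had an adjusted p of 0.0374. That rise was no longer called without either miR-27a KO library, with no filter on low counts or in the fit of all 6 libraries, although its log2 fold change stayed between 2.16 and 2.26 there. Without Scr 1 it was 1.68 and without Scr 2 it was 3.08, called in both. PPARA itself had 25.65 and 27.8 CPM in Scr, 8.37 and 31.4 CPM in miR-23a KO and 38.2 and 34.1 CPM in miR-27a KO. RXRA had 155 and 153 CPM in Scr, 279.5 and 116.5 CPM in miR-23a KO and 132 and 137 CPM in miR-27a KO, and neither receptor gene passed in any comparison with all libraries. Without miR-23a KO 2, RXRA was called up (0.86) and PPARA down (-1.68) against Scr, and likewise between the KO groups.

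In miR-23a KO against Scr 0 of the 88 other pathway genes were called. At an unadjusted p under 0.05, 1 was higher and 1 lower, against 0.856% and 1.55% of all genes. DESeq2 and the replicate block called 1 lower, PPARGC1A, where they called 0.428% and 0.45% of all genes lower. Without miR-23a KO 1 there were 5 up and 7 down, and without miR-23a KO 2 there were 12 up and 6 down, against 6.04% and 4.06% of all genes, then 12.45% and 7.42%. Between the KO groups 0 were called by edgeR on those 4 libraries, with 8 higher and 6 lower at an unadjusted p under 0.05 (4.66% and 4.06% of genes), and DESeq2 called 5 higher and 1 lower (1.87% and 1.58%). Other edgeR fits called CD36 up and PPARGC1A down. These were the fit of all 6 libraries and that with a replicate block (VNN1 also up in both), and that with GC content and length corrected. Of all genes 0.77% were up and 0.77% down with all 6 libraries fitted. With the block 1.52% were up and 1.37% down, and with the correction 1.00% and 1.11%. The block with the correction gave 7 up and 6 down (3.30% and 3.52% of genes). Leaving out miR-23a KO 1 gave 20 up and 26 down there, leaving out miR-23a KO 2 gave 25 up and 20 down, both in fits that called 15.31% to 26.84% of all genes each way, and leaving out either miR-27a KO library gave PPARGC1A down.

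Liver identity was checked with 12 hepatocyte markers, all of them expressed over 1 CPM on average. Their summed level was 38420 and 44430 CPM for Scr, 43380 and 37630 CPM for miR-23a KO, and 32980 and 32830 CPM for miR-27a KO, with ALB (10420 and 15110 CPM) and SERPINA1 (10740 and 11020 CPM) among the most abundant in Scr. In miR-27a KO, beside the rise of FABP1, CPT1A and ACAT1, 1 marker of the 12 rose and 4 fell, where 3.52% and 6.74% of all genes did. The other 7 did not pass, SERPINA1 (0.21) among them. The log2 fold change was -2.59 for ALB, -4.11 for AFP, -2.05 for FGB, -0.70 for APOA2 and 1.25 for TF, the markers that passed. Their part in the members' changes was not tested.

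Markers of other cell types were mostly near 0. Of 7 fibroblast markers 2 were found, COL1A1 at 0 to 0.139 CPM and PDGFRB at 17.4 and 29.2 CPM in Scr, 29.8 and 19.6 CPM in miR-23a KO and 5.63 and 5.12 CPM in miR-27a KO, where it fell by 2.12 on the log2 scale, and COL1A2, COL3A1, THY1, DCN and LUM were not analysed here. The 4 endothelial markers found summed to between 3.35 and 6.83 CPM, led by PECAM1, and KDR was not analysed here. The 6 blood cell markers summed to 543 and 564 CPM for Scr, 267 and 256 CPM for miR-23a KO, and 1607 and 1668 CPM for miR-27a KO. LYZ and CD68 made up nearly all of that sum, LYZ with 377 and 409 CPM in Scr and 1496 and 1560 CPM in miR-27a KO, where it rose by 1.96 on the log2 scale, and CD68 with 161.6 and 151.8 CPM against 106.6 and 103.2 CPM (-0.58, short of 1.5-fold). Of the others, PTPRC, which defines white blood cells, was at 0.0695 to 0.135 CPM and HBB at 0 in 5 libraries and 0.0606 CPM in miR-27a KO 1.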

How the data were processed

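The values the authors deposited were read here as estimated counts per gene, not normalized or scaled for depth or length, and how they were counted is not described. The column names say FPKM, but totals differ between libraries and 42.6% to 50.99% of the values (34.5% to 40.8% of those above 0) are exactly whole, so they were rounded to counts. The submitters' processing notes name HISAT, StringTie, Cufflinks and GATK; their roles, the counting strand and the genome build are not given in the sources used here. The labels name the TruSeq RNA Sample Prep kit, whereas the paper names a stranded mRNA kit. All value columns were used (0 unused).

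For each comparison (2 libraries against 2) a separate model was fitted with filterByExpr, TMM, glmQLFit and glmQLFTest of edgeR 4.0.16 (R 4.3.3), with Benjamini-Hochberg adjustment over every gene tested. Calls needed an adjusted p under 0.05 and a fold change over 1.5. The SE printed with a log2 fold change is not a direct output of edgeR. It is the absolute log2 fold change over the square root of the F statistic. Printed CPM and overlap counts used TMM over all 6 libraries. As alternatives, DESeq2 1.42.0, median-ratio scaling, no filter, a fit of all 6 libraries, a replicate block, GC content and length corrected by loess (span 0.5, degree 2), both together, and leaving out each library were tried. Genes were matched to GENCODE 29 by gene ID (17621 of 20026).

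Members and lists were chosen with earlier results of these data known. Library values are given for members called in any comparison, the 3 with the smallest p in each comparison, and the most abundant in each role; of other lists, called genes (at most 3 per list and comparison) and PPARA, RXRA and PPARGC1A are named. Another 2 listed genes are not reported here and were taken out of the list counts. The 4 pathway genes that were not found were not analysed here.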

Additional observations from a re-analysis of the deposited data

Results flagged for a closer look

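For 6 members, both libraries of miR-23a KO lay below both Scr libraries and both libraries of miR-27a KO lay above them, as for 4.42% of 13411 genes kept in every comparison. The difference between the KO groups, as log2 fold change of miR-23a KO over miR-27a KO, was -2.907 for FABP1, -1.578 for CPT1A, -1.106 for ACSL5, -0.455 for ETFA, -0.406 for DECR1 and -0.375 for HADHA. It was tested for each, and the adjusted p-values ran from 0.35 to 0.835 (edgeR, quasi-likelihood test, Benjamini-Hochberg), so that none passed the threshold. DECR1 and ETFA were named after their values were seen.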

How the results depend on the processing

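FABP1 was called up in miR-27a KO in 10 of 11 alternatives, CPT1A in 8 and ACAT1 in 6, and median-ratio scaling and no filter on low counts kept all 3. Members called up numbered 0 with all 6 libraries fitted (0.0212% of genes) and 5 with a replicate block (4.52%). Members called down numbered 2 with DESeq2 (7.66% of genes), 2 with the block (7.74%), 1 with GC content and length corrected (5.67%) and 1 with both (5.81%), all near or under the background. Between the KO groups 1 member was called down by DESeq2, 1 with the replicate block and 2 with the block and the correction, against 1.58%, 1.37% and 3.52% of genes, and the median was -0.199 with the correction alone. Same-numbered libraries were not treated as pairs, since the correlation of their deviations over genes was 0.214 for Scr with miR-23a KO but 0.0004 and 0.023 for miR-27a KO with these.

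With GC content and length corrected the sign of the log2 fold change turned for 6 of 29 members in miR-23a KO, 3 in miR-27a KO and 4 between the KO groups (5, 4 and 2 with the block as well). Among the genes that the naming rule picked these were ACSL4 (-0.223, and -0.217 with the block) and HADHA (0.004) in miR-23a KO, and ACAA1 (0.135 and 0.153) and RXRA (0.134 and 0.138) in miR-27a KO. The cause was not tested.

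Leaving out 1 library at a time, where the lone library is assumed to vary like the other group, gave 0 to 4 members up and 0 to 3 down in miR-23a KO, with medians from -0.234 to 0.147. In miR-27a KO it gave 1 to 7 up and 0 to 2 down, with medians from 0.14 to 0.289. Between the KO groups it gave 0 to 4 up and 0 to 9 down, with medians from -0.474 to -0.273. Signs turned for 20 of 29 members in miR-23a KO, 6 in miR-27a KO and 12 between the KO groups. Among the genes that the naming rule picked they turned in miR-23a KO for ACAA1 (-0.323 to 0.925), ACAT1 (-0.986 to 0.174), ACSL4 (-0.356 to 0.806), ECI2 (-0.165 to 0.205), ETFB (-0.623 to 0.097), PLIN2 (-0.347 to 0.726), PPARA (-1.675 to 0.287) and RXRA (-0.35 to 0.858). In miR-27a KO they turned for ACADM (-0.024 to 0.982) and PLIN2 (-0.24 to 0.385), and between the KO groups for ACAA1 (-0.23 to 1.075), PLIN2 (-0.383 to 0.634) and RXRA (-0.205 to 1.06).

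Overlap of libraries was first counted with each pair of groups scaled alone. Scaling over all 6 libraries was chosen after seeing the data, so that the counts follow from the CPM printed. The same 7, 19 and 15 members were found either way, but the shares of all genes above and below Scr in miR-23a KO were 10.7% and 11.98% with the pair alone, so the 7 members below Scr should be read against either background. A count of 0 with 2 libraries a group does not show that members were alike in miR-23a KO and Scr.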
